A study of Mus musculus with 5 samples.

Results

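The genes described here are chemokines and their receptors in the mouse esophagus, with the eotaxins and the eotaxin receptor left aside. They were taken from a fixed list of 39 gene symbols, and 38 of them had at least 1 probe set annotated to that symbol alone, of 18193 such genes on the array. The remaining listed gene, Ccl19, had a probe set that carries several symbols, and no value is given for it. Gene expression was measured with Affymetrix Mouse Genome 430 2.0 arrays in CC10-rtta/teton-IL-13 transgenic mice on the FVB/N background, aged 3 to 4 months. The Dox group (3 arrays) came from mice on a diet with doxycycline and the NoDox group (2 arrays) from mice on the regular diet, and both groups carry the transgenes. The CC10 promoter, which is active in club cells of the airway, drives a transactivator that turns on the type 2 cytokine IL-13 when doxycycline is given. No doxycycline-fed mice lacking the transgenes were analysed here, and effects of the diet and of the induced cytokine cannot be told apart. Whether the arrays stand for separate animals is not stated in the labels, and the p-values therefore cover only array-to-array spread, which the small number of arrays estimates poorly.

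Chemokines are small secreted proteins that bind receptors of the G protein-coupled class on leukocytes and direct their movement into and through tissues. They are grouped by the spacing of their first cysteines into CC, CXC, C and CX3C ligands, and CXC ligands with the tripeptide motif ELR are known for acting on neutrophils. In tissues with type 2 inflammation, ligands of CCR3, CCR4 and CCR8 are known for drawing eosinophils and T helper cells of the type 2 kind, and ligands of CCR2 and CCR1 for drawing monocytes. IL-13 signals through the transcription factor STAT6, while many CXC chemokines are known targets of NF-kappaB and of interferon.

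Each gene was read from its probe set of highest signal, as the ratio of an array's signal to the mean of the 2 NoDox arrays, a linear scale on which 1 is that mean. Of the 38 genes 7 rose in Dox (18.4%) and 0 fell, at an adjusted p under 0.05 in limma with Benjamini-Hochberg adjustment over all genes. An unadjusted p under 0.05 in limma was found for 18 of the 38, and for 3221 of all 18193 genes. The 7 were the ligands Ccl8, Ccl22, Ccl2, Ccl6, Ccl9 and Cxcl15 and the receptor Ccr7. Over all genes tested 1.45% rose and 1.34% fell. These were 264 and 243 genes, and the counts were 307 and 172 with each array centred on its median, 59 and 13 with quantile normalization of the ratios and 321 and 138 with quantile normalization of the recovered signals, a setting added after the data were seen. With quantile normalization of the ratios 2 of the 38 genes passed, Ccl8 and Cxcl15. Of the 38, 17 had a log2 fold change of 1 or more (7.06% of all genes did), and 1 had a value of -1 or less (5.46% of all genes did). The median log2 fold change of the 38 was 0.91, against -0.08 over all genes, and 32 of them had a value above 0, against 42.2% of all genes. The 3 Dox arrays lay above both NoDox arrays for 21 of the 38 genes (55.3%), against 13.7% of all genes, and below both for 1, Ccr4, against 22.3% of all genes. The calls rest on a trend of the spread with signal level, since without that trend 1 of the 38 genes passed (Ccl8), and a trend on the mean log2 ratio left 0 past the threshold in limma (17 at unadjusted p under 0.05). In whole tissue, more cells of a type and more RNA per cell cannot be told apart.

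The promoters of the risen genes that the RefSeq table of build GRCm38.p6 holds are shown first, to set them beside genes of the same families and clusters that did not pass the test. Each window is read on the gene's own strand, from upstream of the transcription start to a little past it. Bases that match a searched motif are in capitals. The windows lie at chr11:82114935-82115234 (plus strand) for Ccl8, chr5:90794284-90794583 (plus strand) for Cxcl15, chr8:94745434-94745733 (plus strand) for Ccl22, chr11:83593038-83593337 (minus strand) for Ccl6 and chr11:83578587-83578886 (minus strand) for Ccl9. Those of the genes not past the test lie at chr8:94810203-94810502 (plus strand) for Ccl17, chr5:90890995-90891294 (plus strand) for Cxcl1 and chr5:90903649-90903948 (plus strand) for Cxcl2.
Ccl8: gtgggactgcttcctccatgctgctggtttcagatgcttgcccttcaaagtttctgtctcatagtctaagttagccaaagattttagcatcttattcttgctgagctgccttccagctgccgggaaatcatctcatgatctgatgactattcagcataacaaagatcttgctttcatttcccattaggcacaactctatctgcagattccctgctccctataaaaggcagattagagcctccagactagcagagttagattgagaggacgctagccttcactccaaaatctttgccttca
Cxcl15: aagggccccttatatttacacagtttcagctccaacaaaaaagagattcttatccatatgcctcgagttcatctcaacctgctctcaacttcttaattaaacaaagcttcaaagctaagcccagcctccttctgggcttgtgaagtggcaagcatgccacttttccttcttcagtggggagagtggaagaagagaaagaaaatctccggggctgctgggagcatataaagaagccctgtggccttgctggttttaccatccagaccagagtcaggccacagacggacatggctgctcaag
Ccl22: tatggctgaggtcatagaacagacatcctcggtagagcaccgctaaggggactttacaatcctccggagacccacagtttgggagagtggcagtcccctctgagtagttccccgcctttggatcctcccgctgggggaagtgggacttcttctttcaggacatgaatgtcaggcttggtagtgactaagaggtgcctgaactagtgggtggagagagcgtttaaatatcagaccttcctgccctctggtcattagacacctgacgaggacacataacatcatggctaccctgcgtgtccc
Ccl6: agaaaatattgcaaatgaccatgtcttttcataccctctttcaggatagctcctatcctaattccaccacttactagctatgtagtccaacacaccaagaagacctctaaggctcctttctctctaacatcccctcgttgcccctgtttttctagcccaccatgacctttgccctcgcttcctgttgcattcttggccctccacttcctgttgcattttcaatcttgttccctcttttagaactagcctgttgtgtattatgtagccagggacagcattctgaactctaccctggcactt
Ccl9: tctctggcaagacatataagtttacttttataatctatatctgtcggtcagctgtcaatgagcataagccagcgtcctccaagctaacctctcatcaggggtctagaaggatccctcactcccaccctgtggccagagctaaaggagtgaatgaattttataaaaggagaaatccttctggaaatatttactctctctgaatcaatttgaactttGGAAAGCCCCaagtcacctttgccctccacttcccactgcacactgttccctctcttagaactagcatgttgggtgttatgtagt
Ccl17: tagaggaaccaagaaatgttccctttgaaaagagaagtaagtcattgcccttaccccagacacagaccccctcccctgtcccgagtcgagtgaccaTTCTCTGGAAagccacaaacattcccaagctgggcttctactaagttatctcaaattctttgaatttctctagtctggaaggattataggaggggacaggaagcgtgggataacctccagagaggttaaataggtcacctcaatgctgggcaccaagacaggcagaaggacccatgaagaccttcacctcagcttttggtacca
Cxcl1: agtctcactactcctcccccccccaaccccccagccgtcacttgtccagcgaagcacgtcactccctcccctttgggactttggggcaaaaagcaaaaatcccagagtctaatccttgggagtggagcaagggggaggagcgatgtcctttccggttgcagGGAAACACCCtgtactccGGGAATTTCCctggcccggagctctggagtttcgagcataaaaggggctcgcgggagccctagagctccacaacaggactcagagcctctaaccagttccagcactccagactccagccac
Cxcl2: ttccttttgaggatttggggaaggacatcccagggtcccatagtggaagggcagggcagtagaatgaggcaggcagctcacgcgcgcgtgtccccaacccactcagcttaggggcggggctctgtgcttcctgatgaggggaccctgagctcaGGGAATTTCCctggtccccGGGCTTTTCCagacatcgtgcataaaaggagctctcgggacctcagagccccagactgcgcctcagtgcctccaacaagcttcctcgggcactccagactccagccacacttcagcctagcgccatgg

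The motifs searched on both strands, with overlapping matches kept, were TTCNNNNGAA for STAT6, GGGNNTTTCC as a simplified NF-kappaB motif and GAAANNGAAA for interferon-regulated factors, where N is any base. Among the 30 members with a window, the STAT6 motif occurred in 1 (3.33%), against 6.95% of all 32851 windows of the same length. That gene was Ccl17, whose match TTCTCTGGAA starts at -154 from the transcription start. The window of Ccl22, a neighbour of Ccl17 on chromosome 8 and a gene that rose, held none of the searched letters, and neither did those of Ccl8, Cxcl15 and Ccl6. The NF-kappaB motif occurred in 4 members (13.3%), against 1.63% of all windows, and these were Cxcl1, Cxcl2, Ccl20 and Ccl9. Cxcl1 and Cxcl2 share the match GGGAATTTCC, at -71 in Cxcl1 and -97 in Cxcl2. The interferon motif occurred in 2 members (6.67%), Cxcl10 and Cxcl14, against 3.44% of all windows. A match describes letters in the window and is not evidence of a bound site.

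**Figure D1:**
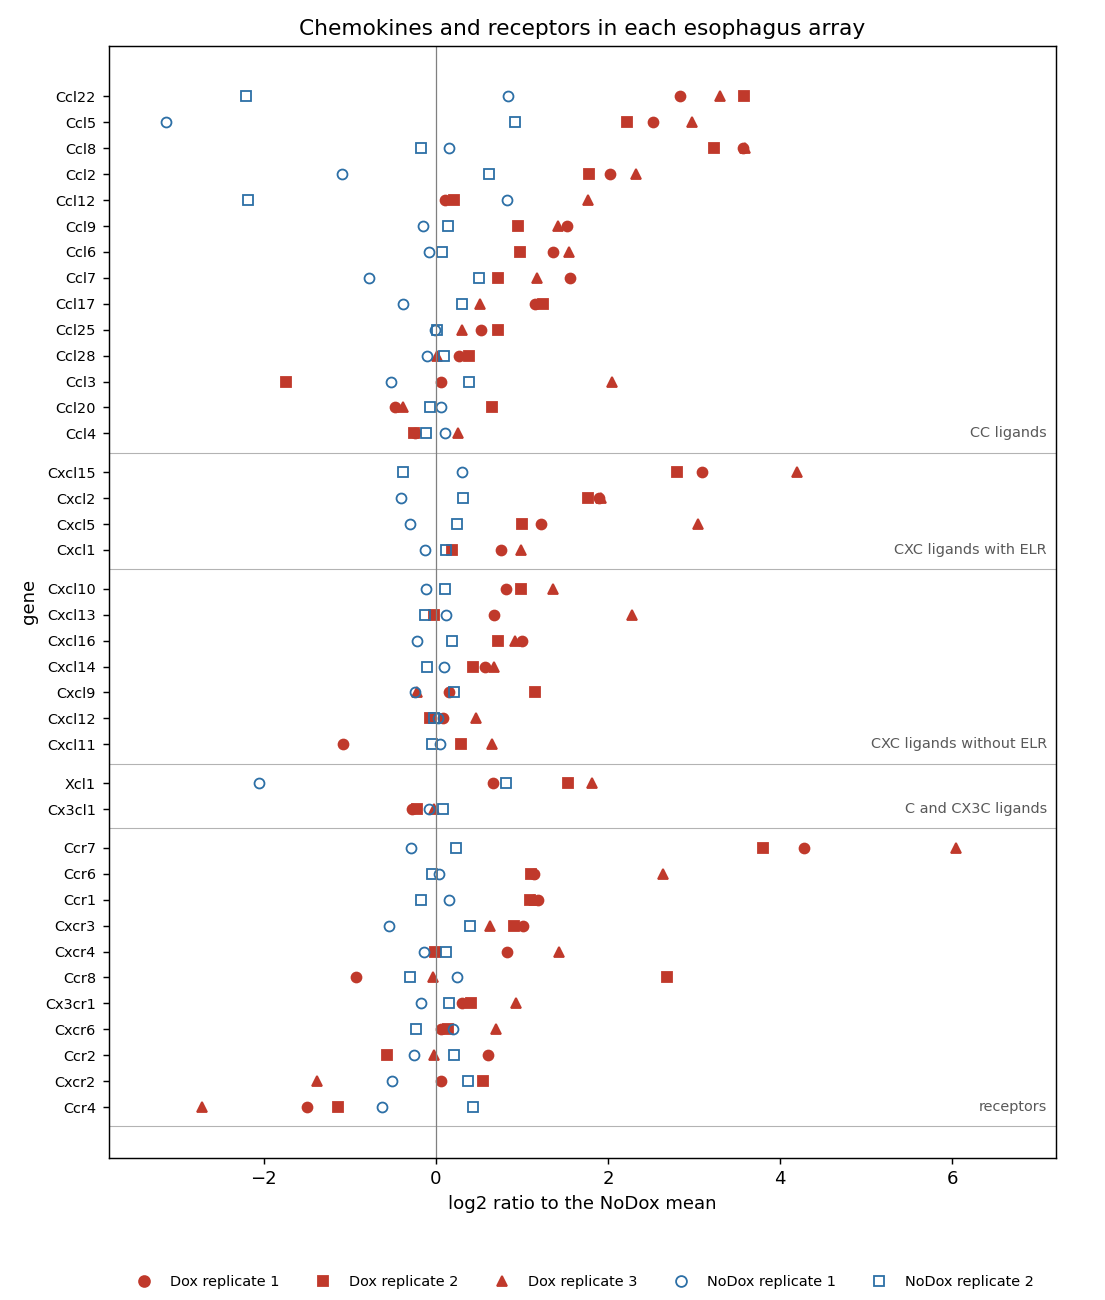
Log2 ratio to the NoDox mean of each of the 38 genes in each of the 5 arrays, with the 3 Dox arrays as filled red symbols and the 2 NoDox arrays as open blue symbols, in panels by gene group. The Dox arrays of Ccl8, Ccl22, Cxcl15 and Ccr7 lie well to the right of both NoDox arrays, while the NoDox arrays of Ccl5, Ccl22, Ccl12 and Xcl1 differ from each other by over 4-fold.

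Among the 14 CC ligands 5 rose and 0 fell, and their median log2 fold change was 1.29. The Dox arrays lay above both NoDox arrays for 9 of them, against 13.7% of all genes. Ccl8, a monocyte chemokine that in mice acts through CCR8, was measured by probe set 1419684_at and had ratios of 11.9, 9.40 and 12.04 in the Dox arrays, against 1.11 and 0.891 in the NoDox arrays. All Dox values lay within 1.28-fold of each other and far above both NoDox values. Its log2 fold change was 3.47 ± 0.16 (SE), an 11.1-fold rise (adjusted p = 1.18e-05, limma with Benjamini-Hochberg adjustment). The value was 2.49 with quantile normalization of the ratios (adjusted p = 0.00211). When each array was left out in turn, Ccl8 was the only one of the 7 risen genes to stay past the threshold all 5 times, with an adjusted p of at most 0.001001 and a log2 fold change from 3.31 to 3.63.

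Ccl22, a ligand of CCR4 made by macrophages and dendritic cells, had ratios of 7.13, 12.002 and 9.86 in the Dox arrays, against 1.78 and 0.216 in the NoDox arrays (probe set 1417925_at). The groups did not overlap, but the NoDox arrays differed from each other by 8.26-fold, which is more than the Dox arrays did (1.68-fold). The log2 fold change was 3.93 ± 0.79 (adjusted p = 0.0340), and it was 2.41 without NoDox replicate 2 and 5.45 without NoDox replicate 1. Leaving out single arrays ended the call except for NoDox replicate 1. With an offset added to the signal, its log2 fold change was 2.56 at the 20th percentile of signal (adjusted p = 0.0176) and 1.32 at the median signal (adjusted p = 0.0150). The call also ended with quantile normalization of the ratios (2.74, adjusted p = 0.653), the mean over probe sets (0.0909) and all probe sets fitted together (0.0542). Ccl17, the other CCR4 ligand, had ratios of 2.22, 2.38 and 1.43 in the Dox arrays, against 0.769 and 1.23 in the NoDox arrays, a log2 fold change of 1.01 ± 0.44 that was not past the threshold (adjusted p = 0.270). Between these CCR4 ligands on chromosome 8 lies Cx3cl1, the membrane-bound ligand of CX3CR1, at -0.17 ± 0.29.

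The ligands of CCR2, which bring monocytes from blood, are Ccl2, Ccl7 and Ccl12. Ccl2 had ratios of 4.06, 3.44 and 5.02 in the Dox arrays, against 0.471 and 1.53 in the NoDox arrays (probe set 1420380_at). No Dox value came near the higher NoDox value, and the log2 fold change was 2.28 ± 0.50 (adjusted p = 0.0494, limma with Benjamini-Hochberg adjustment). This call lies at the threshold, and leaving out any array other than Dox replicate 2 ended it, with an adjusted p of up to 0.330 and a log2 fold change from 1.43 to 3.13. With an offset its log2 fold change was 1.79 at the smaller and 1.02 at the larger one, both past the threshold. The call ended with quantile normalization of the ratios (adjusted p = 0.645), the mean over probe sets (0.112) and all probe sets fitted together (0.0738). Ccl7 had ratios of 2.94, 1.65 and 2.25 in Dox, against 0.586 and 1.41 in NoDox, and a log2 fold change of 1.29 ± 0.52 (adjusted p = 0.240). Ccl12 had ratios of 1.08, 1.16 and 3.41 in Dox, against 1.78 and 0.220 in NoDox. Its groups overlapped and its log2 fold change was 1.37 ± 0.89 (adjusted p = 0.476), with a value of -0.13 without NoDox replicate 2.

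Ccl6 and Ccl9, adjacent CC ligands on chromosome 11 that in mice act through CCR1 and are made by macrophages, both rose. Ccl6 had ratios of 2.57, 1.96 and 2.93 in the Dox arrays, against 0.950 and 1.05 in the NoDox arrays (probe set 1417266_at), and its log2 fold change was 1.30 ± 0.18 (adjusted p = 0.00689). Ccl9 had ratios of 2.88, 1.94 and 2.68 in the Dox arrays, against 0.899 and 1.10 in the NoDox arrays (probe set 1417936_at), and its log2 fold change was 1.31 ± 0.19 (adjusted p = 0.00870). Their other probe sets gave 1.86 ± 0.25 for Ccl6 and 0.95 ± 0.14 for Ccl9, and the signal level of the Ccl6 probe set used was not recovered but set to a lower bound. In both genes every Dox value was above every NoDox value in the probe set used, and Dox replicate 2 was the lowest of the Dox arrays. Both genes lost their call when either NoDox array was left out, with an adjusted p of up to 0.144 for Ccl6 and 0.160 for Ccl9, and Ccl9 also lost it without Dox replicate 3 (0.0544). With quantile normalization of the ratios both were at 1.06 and not past the threshold (adjusted p of 0.0713 for Ccl6 and 0.135 for Ccl9).

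Ccl5, which draws T cells and eosinophils, had a log2 fold change above that of Ccl8 without passing the test. Its ratios were 5.76, 4.68 and 7.90 in the Dox arrays, against 0.114 and 1.89 in the NoDox arrays. The Dox values lay above both NoDox values, but the NoDox arrays differed by 16.6-fold, and the log2 fold change was 3.69 ± 0.96 (adjusted p = 0.0815). Without NoDox replicate 1 its log2 fold change was 1.66, and without NoDox replicate 2 it was 5.71 with an adjusted p of 0.00660. With an offset it was 2.40 at the smaller one (adjusted p = 0.0507) and 1.28 at the larger one, past the threshold (adjusted p = 0.0324). Ccl3 and Ccl4, the macrophage inflammatory proteins next to Ccl6, showed no such separation. Ccl3 had ratios of 1.04, 0.300 and 4.14 in Dox, against 0.694 and 1.31 in NoDox (0.19 ± 1.12), and Ccl4 had ratios of 0.848, 0.838 and 1.20 in Dox, against 1.08 and 0.921 in NoDox (-0.07 ± 0.32).

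The CC ligands of epithelium were not past the threshold. Ccl20, the ligand of CCR6, had ratios from 0.721 to 1.57 in Dox, against 0.957 and 1.04 in NoDox, and Ccl28, which mucosal epithelium makes, had ratios from 1.01 to 1.30 in Dox, against 0.930 and 1.07 in NoDox. Ccl25, a ligand of CCR9 known from thymus and gut, had ratios from 1.24 to 1.65 in Dox, against 0.991 and 1.01 in NoDox. Its log2 fold change was 0.52 ± 0.37, and its other probe set gave -1.08 ± 0.91. The eotaxin Ccl11, which lies between Ccl7 and Ccl12 on chromosome 11, rose by 1.94 ± 0.31 (adjusted p = 0.0135), while Ccl24 (0.57 ± 0.24) and the eotaxin receptor Ccr3 (0.07 ± 1.003) were not past the threshold. In gene order along that cluster, the log2 fold changes were 2.28 for Ccl2, 1.29 for Ccl7, 1.94 for Ccl11, 1.37 for Ccl12, 3.47 for Ccl8 and -0.28 for Ccl1.

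**Figure D2:**
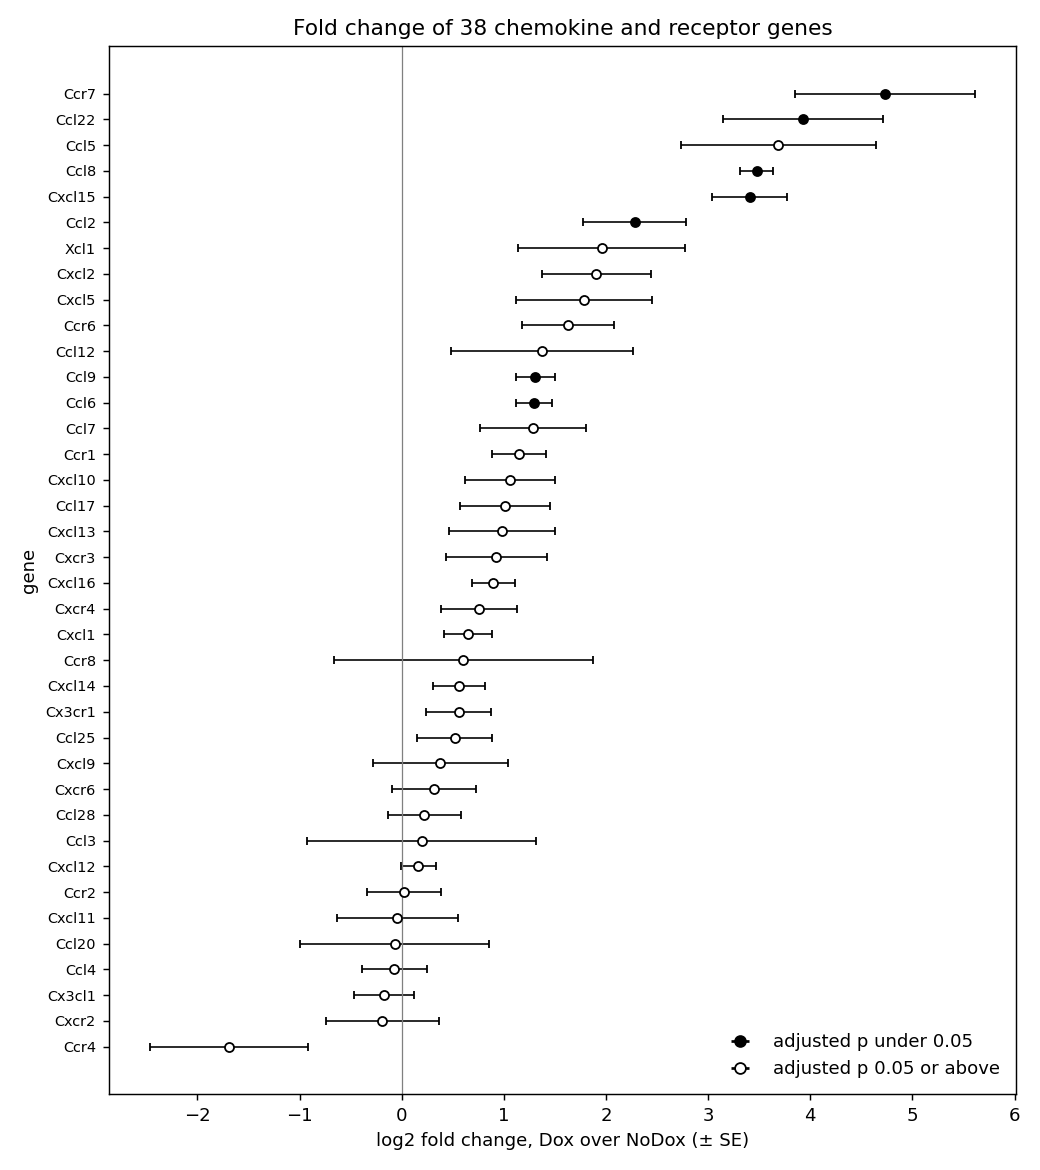
Log2 fold change, Dox over NoDox, with its standard error from the limma fit for each of the 38 genes in order of size, with filled points for an adjusted p under 0.05. The filled points include narrow intervals at moderate size (Ccl6 and Ccl9) and wide ones at large size (Ccr7 and Ccl22), and Ccl5 at 3.69 is open.

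All 4 CXC ligands with the ELR motif had their 3 Dox arrays above both NoDox arrays, against 13.7% of all genes. Only 1 of these 4 ligands, Cxcl15, passed the test. Their median log2 fold change was 1.84, and in all 4 Dox replicate 3 was the highest array. Cxcl15, also called lungkine, is known in mice as a chemokine of lung epithelium that acts on neutrophils. It had ratios of 8.54, 6.99 and 18.3 in the Dox arrays, against 1.23 and 0.766 in the NoDox arrays (probe set 1421404_at). All Dox values were far above both NoDox values, and the Dox arrays differed from each other by 2.62-fold, with Dox replicate 3 the highest. Its log2 fold change was 3.41 ± 0.37, a 10.6-fold rise (adjusted p = 0.00204, limma with Benjamini-Hochberg adjustment). The value was 2.43 with quantile normalization of the ratios (adjusted p = 0.0236). Of the 5 arrays, the call was lost when NoDox replicate 2 was left out (adjusted p = 0.0531) and kept for the others, and without Dox replicate 3 the log2 fold change was 2.99.

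Cxcl1, Cxcl2 and Cxcl5 bind CXCR2, the main chemokine receptor of neutrophils. Cxcl2 had ratios of 3.73, 3.40 and 3.80 in the Dox arrays, against 0.758 and 1.24 in the NoDox arrays. The Dox arrays lay close together and above both NoDox arrays, and the log2 fold change of 1.91 ± 0.53 was not past the threshold (adjusted p = 0.102). Cxcl5 had ratios of 2.33, 2.00 and 8.28 in Dox, against 0.810 and 1.19 in NoDox, and a log2 fold change of 1.78 ± 0.67 (adjusted p = 0.206). Dox replicate 3 held the high value, and without it the log2 fold change was 1.14.

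Cxcl1 was read differently by its 3 probe sets. The one of highest signal had ratios of 1.69, 1.14 and 1.99 in Dox, against 0.914 and 1.09 in NoDox (0.65 ± 0.24, adjusted p = 0.195), and its name ends in _x_at, the maker's mark for probes that can match other transcripts. The others gave log2 fold changes of 1.83 ± 0.47 and 4.40 ± 0.93, the last with ratios of 10.3, 6.32 and 24.2 in Dox, against 1.83 and 0.167 in NoDox. In all 3 the Dox arrays lay above both NoDox arrays, so the direction was shared and the size was not. With the mean over probe sets in place of the brightest one, Cxcl1 passed the threshold (2.29, adjusted p = 0.0369), as it did without Dox replicate 2 (0.88, adjusted p = 0.0234). The genes run Cxcl15, Cxcl1, Cxcl2 along chromosome 5.

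Of the 7 CXC ligands without ELR 0 passed the test, and their median log2 fold change was 0.56. In limma 2 of the 7 had an unadjusted p under 0.05, where 3221 of all 18193 genes did. Cxcl16, a transmembrane ligand of CXCR6 made by macrophages and epithelium, came nearest. It had ratios of 2.01, 1.65 and 1.89 in the Dox arrays, against 0.861 and 1.14 in the NoDox arrays, and the groups did not overlap. Its log2 fold change was 0.90 ± 0.21 (adjusted p = 0.0641), and its other probe set gave 1.73 ± 0.35. Cxcl14, a chemokine of epithelium, had ratios of 1.48, 1.35 and 1.60 in Dox, against 1.07 and 0.932 in NoDox (0.56 ± 0.26), while its other probe set gave 2.71 ± 0.65.

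Cxcl9, Cxcl10 and Cxcl11 are ligands of CXCR3 that interferon gamma induces. Cxcl10 had ratios of 1.76, 1.99 and 2.57 in the Dox arrays, against 0.924 and 1.08 in the NoDox arrays, with no overlap and a log2 fold change of 1.06 ± 0.44 (adjusted p = 0.256). Cxcl9 had ratios of 1.11, 2.22 and 0.861 in Dox, against 0.846 and 1.15 in NoDox (0.38 ± 0.66). The groups overlapped, and a second Cxcl9 probe set, in the dimmest 25% by signal, had ratios of 1.69, 6.60 and 12.2 in Dox, against 1.20 and 0.804 in NoDox. Cxcl11 had ratios of 0.474, 1.22 and 1.58 in Dox, against 1.03 and 0.968 in NoDox (-0.04 ± 0.59). Its other probe set, also in the dimmest 25%, had all Dox arrays below both NoDox arrays and was not past the threshold (-1.43 ± 0.89).

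Cxcl12 and Cxcl13 guide leukocytes in resting tissue and in lymphoid follicles. Cxcl12, the ligand of CXCR4 made by stroma, had ratios of 1.06, 0.952 and 1.39 in Dox, against 1.02 and 0.982 in NoDox (0.16 ± 0.17), the smallest standard error among the CXC ligands without ELR. Cxcl13, which draws B cells into follicles, had ratios of 1.59, 0.988 and 4.85 in Dox, against 1.09 and 0.913 in NoDox (0.98 ± 0.52, adjusted p = 0.374). Its high value came from Dox replicate 3 and its groups overlapped. Xcl1, the C ligand made by T and NK cells, had ratios of 1.59, 2.89 and 3.53 in Dox, against 0.241 and 1.76 in NoDox, with overlap and a log2 fold change of 1.96 ± 0.82 (adjusted p = 0.255).

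Among the 11 receptors 1 rose and 0 fell, and their median log2 fold change was 0.60. Ccr7, which brings dendritic cells and naive T cells to lymph nodes, had ratios of 19.3, 13.9 and 66.1 in the Dox arrays, against 0.822 and 1.18 in the NoDox arrays (probe set 1423466_at). Every Dox value was far above both NoDox values, and the Dox arrays differed by 4.75-fold, with Dox replicate 3 the highest. The log2 fold change of 4.73 ± 0.88 (adjusted p = 0.0254) was the largest of the 38 genes when no offset was added. Its probe set lies in the dimmest 25% of probe sets by recovered signal, and with an offset added to the signal the log2 fold change was 1.93 at the smaller offset, the 20th percentile of signal (adjusted p = 0.0853), and 0.73 at the larger one, the median signal (adjusted p = 0.171). At the smaller offset it stood below Ccl8 (3.41), Cxcl15 (3.32), Ccl22 (2.56) and Ccl5 (2.40). The call also ended with quantile normalization of the ratios (3.24, adjusted p = 0.255), the mean over probe sets (0.0559) and all probe sets fitted together (0.0501). The call outlasted the removal of Dox replicate 1 or 2, and ended without Dox replicate 3 (0.0720), NoDox replicate 1 (0.229) or NoDox replicate 2 (0.175).

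Ccr1, a receptor of monocytes and neutrophils for Ccl6, Ccl9, Ccl3 and Ccl5 in mice, had ratios of 2.27, 2.13 and 2.21 in the Dox arrays, against 1.11 and 0.890 in the NoDox arrays. The Dox arrays were within 1.07-fold of each other and above both NoDox arrays, and the log2 fold change of 1.15 ± 0.27 lay just outside the threshold (adjusted p = 0.0593). Its other probe set gave 0.83 ± 0.82, with the groups overlapping. Ccr6, the receptor for Ccl20 on B cells, T cells and dendritic cells, had ratios of 2.21, 2.15 and 6.22 in Dox, against 1.03 and 0.970 in NoDox (1.63 ± 0.45, adjusted p = 0.09997). Ccr4, the receptor for Ccl17 and Ccl22 on T helper cells, had ratios of 0.355, 0.454 and 0.152 in Dox, against 0.651 and 1.35 in NoDox. It was the single member whose Dox arrays all lay below both NoDox arrays, its probe set was in the dimmest 25%, and its log2 fold change was -1.69 ± 0.77 (adjusted p = 0.300).

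Of the receptors that pair with risen ligands, Ccr2 and Ccr8 were not past the threshold. Ccr2, on monocytes, had ratios of 1.52, 0.676 and 0.989 in Dox, against 0.839 and 1.16 in NoDox (0.03 ± 0.36, 95% interval from -0.79 to 0.84), and its 3 other probe sets gave -0.33, -0.20 and -0.17. Ccr8, on type 2 T helper cells and regulatory T cells, had ratios of 0.525, 6.46 and 0.978 in Dox, against 1.19 and 0.813 in NoDox (0.60 ± 1.27, 95% interval from -2.25 to 3.46). A single array, Dox replicate 2, held its high value, and without that array the log2 fold change was -0.45. Cxcr2, the neutrophil receptor, had ratios of 1.05, 1.46 and 0.383 in Dox, against 0.7002 and 1.30 in NoDox (-0.19 ± 0.55).

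Cxcr3, Cx3cr1, Cxcr4 and Cxcr6 were not past the threshold. Cxcr3, on activated T cells, had ratios of 2.02, 1.88 and 1.55 in Dox, against 0.687 and 1.31 in NoDox, with no overlap (0.93 ± 0.49, adjusted p = 0.374). Cx3cr1, on resident macrophages and monocytes, had ratios of 1.24, 1.32 and 1.91 in Dox, against 0.889 and 1.11 in NoDox (0.56 ± 0.32). Cxcr4 had ratios of 1.77, 0.997 and 2.70 in Dox, against 0.913 and 1.09 in NoDox (0.76 ± 0.38), and Cxcr6 had ratios of 1.04, 1.10 and 1.62 in Dox, against 1.15 and 0.850 in NoDox (0.32 ± 0.41). The other Cxcr6 probe set had ratios of 2.48, 2.44 and 2.02 in Dox, against 1.24 and 0.759 in NoDox. There the groups did not overlap, and the value of 1.24 ± 0.57 was not past the threshold. Among 4 further receptors set beside their ligands here, Cxcr5, for Cxcl13, was at 0.99, Ccr10, for Ccl28, at 0.75, Ccr9, for Ccl25, at 0.00 and Xcr1, for Xcl1, at -0.18, and none passed the test.

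**Figure D3:**
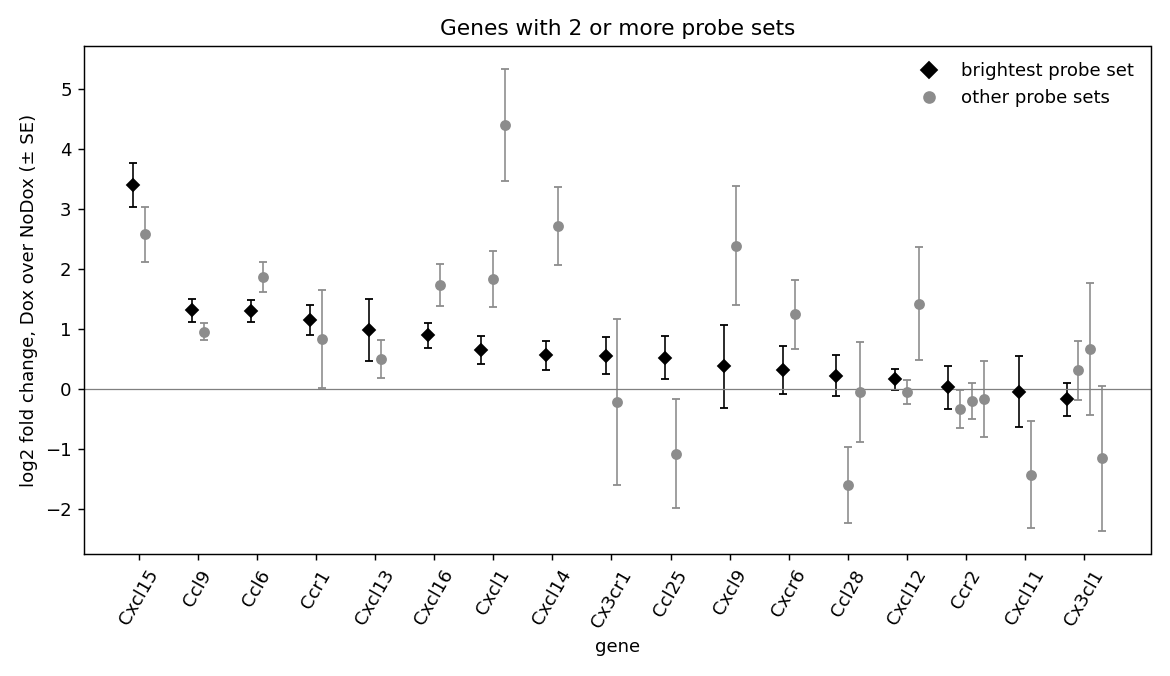
Log2 fold change, Dox over NoDox, with its standard error for the 17 genes that have 2 or more probe sets, with the probe set of highest signal as a black diamond and the others as grey points. Both probe sets of Cxcl15 (3.41 and 2.58), Ccl6 (1.30 and 1.86) and Ccl9 (1.31 and 0.95) lie above 0, while those of Cxcl1 spread from 0.65 to 4.40 and those of Ccl28 from 0.22 to -1.60.

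The 38 genes have 62 probe sets in all, and 17 genes have more than 1. In a fit over all 45037 probe sets 7 of the 62 rose (Ccl8, and both probe sets of Ccl6, Ccl9 and Cxcl15) and 0 fell, where 0.6% of all probe sets rose and 0.54% fell. The Dox arrays lay above both NoDox arrays for 30 of the 62, where 12.4% of all probe sets did so, and below both for 3, where 19.7% did. The second Cxcl15 probe set had ratios of 5.33, 3.14 and 11.9 in Dox, against 1.20 and 0.796 in NoDox (2.58 ± 0.46, adjusted p = 0.0355), with the same order of the Dox arrays. Of the 17 genes, 11 had probe sets of a single sign and 6 of mixed sign. The mixed ones include Ccl28, one of whose probe sets had ratios from 0.298 to 0.339 in Dox, against 0.822 and 1.18 in NoDox (-1.60 ± 0.64, adjusted p = 0.301).

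Single arrays carried several of these values. Dox replicate 3 was the highest Dox array in 23 of the 38 genes (60.5%), where it was so in 29.5% of all genes, and the median ratios of the 38 genes were 1.64, 1.65 and 2.10 in the Dox arrays, against 0.919 and 1.08 in the NoDox arrays. Without Dox replicate 3, 3 of the 38 genes passed the test, which were Ccl8, Cxcl15 and Ccl6. Without NoDox replicate 1 the count was 3, and without NoDox replicate 2 it was 2. The NoDox arrays differed by over 4-fold in 4 of the 38 genes (Ccl5, Ccl22, Ccl12 and Xcl1), where 6.13% of all genes do so. A total of 5 of the 38 lay in the dimmest 25% of probe sets (Ccr7, Ccr4, Ccr8, Ccl3 and Ccl20).

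**Figure D4:**
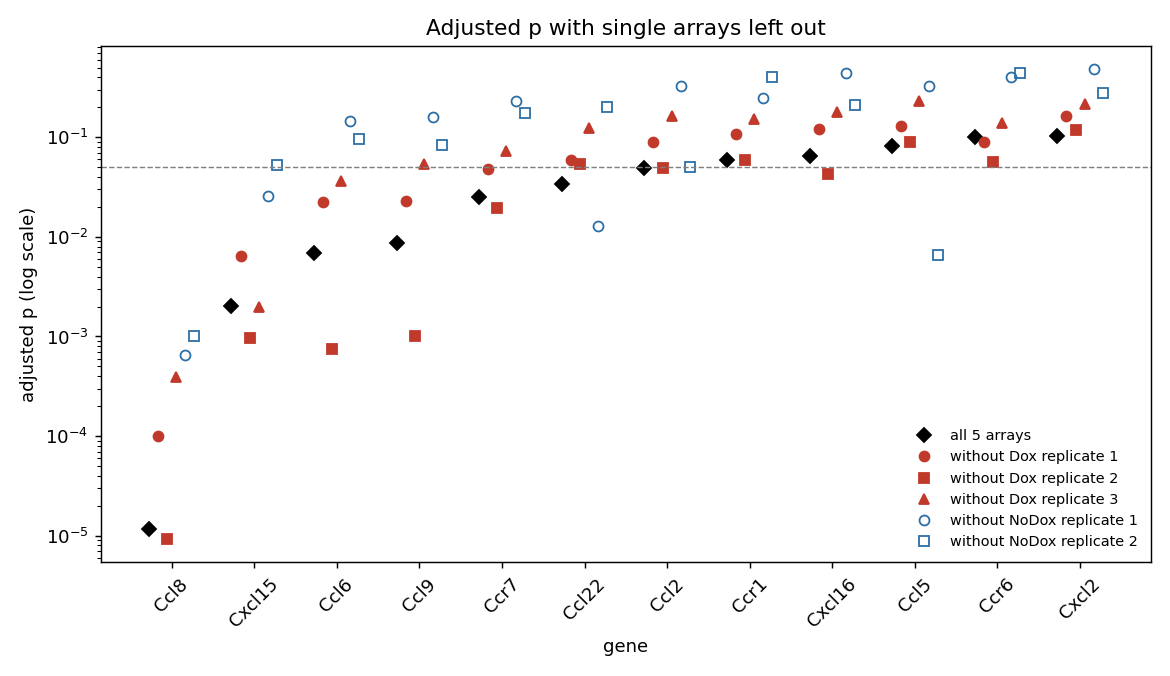
Adjusted p (log scale) of the 12 genes of smallest adjusted p with all 5 arrays (black diamonds) and with each array left out in turn (red for a Dox array, open blue for a NoDox array), with the threshold of 0.05 as a dashed line. All points of Ccl8 lie below the line, Cxcl15 has 1 above it, and each of the other genes has at least 2 above it.

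The chemokine genes were then set beside lists of other pathway and cell type genes. Of 15 measured genes among 18 other chemokines, chemokine-like genes and receptors 0 rose and 0 fell, and the median log2 fold change was 0.08. In limma 4 of the 15 had an unadjusted p under 0.05, where 3221 of all 18193 genes did. Cxcl3, a further ELR ligand of CXCR2 and a dim probe set, had ratios of 9.88, 8.95 and 11.1 in Dox, against 1.60 and 0.398 in NoDox (3.64 ± 0.89, adjusted p = 0.0700). The chemokine-like genes Cmtm3 (0.47 ± 0.16) and Cmtm7 (0.61 ± 0.22) had the next smallest p-values. The fourth of these 4, the platelet chemokine Pf4, had ratios of 0.691, 0.835 and 0.540 in Dox, against 0.855 and 1.14 in NoDox, so that all Dox arrays lay below both NoDox arrays without the gene passing the test (-0.55 ± 0.20). Of the 4 atypical receptors, which bind chemokines without G protein signalling, 0 rose and 0 fell, with Ackr4 at 0.34, Ackr1 at 0.11 and Ackr2 at 0.10. Of 29 measured genes of receptor signalling 2 rose, the leukocyte GTPase Rac2 (1.33 ± 0.26) and Dock2, which activates Rac in leukocytes (1.66 ± 0.30), and the median was 0.26.

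Of 16 measured interferon gamma-induced genes 3 rose, the peptide transporter Tap1 (1.37 ± 0.22), the immunoproteasome subunit Psmb9 (1.23 ± 0.17) and the GTPase Iigp1 (1.09 ± 0.23), with a median of 0.56. Of 17 measured genes of the NF-kappaB pathway and its targets 3 rose, the feedback inhibitor Tnfaip3 (1.28 ± 0.28), the adhesion molecule Icam1 (1.02 ± 0.21) and the survival factor Birc3 (0.84 ± 0.18), with a median of 0.61. In both lists 0 genes fell.

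Some genes of the cells that make and answer chemokines rose in the same arrays, where 1.45% of all genes rose. Of 19 measured genes of monocytes and macrophages 8 rose, among them Cd68 (1.54 ± 0.15), the adaptor Tyrobp (1.42 ± 0.18), the pore-forming Mpeg1 (1.52 ± 0.25) and the growth factor receptor Csf1r (0.80 ± 0.14), and 0 fell. The others were Fcgr3, Adgre1, Lyz2 and Clec10a, at 0.75 to 1.08. The summed signal of the 16 genes with a recovered level was 2.003, 1.67 and 1.80 in the Dox arrays, against 1.02 and 0.984 in the NoDox arrays. Of 15 measured genes of dendritic and Langerhans cells 5 rose, the integrin Itgax (2.03 ± 0.36), the Langerhans lectin Cd207 (2.53 ± 0.22), the class II genes H2-Ab1 (1.42 ± 0.22) and Cd74 (1.58 ± 0.20) and Ccr7 itself. The Dox arrays lay above both NoDox arrays for 10 of the 15, against 13.7% of all genes. Flt3 (0.43 ± 0.62), Batf3 (0.32 ± 0.35), Zbtb46 (0.09 ± 0.28) and Xcr1 (-0.18 ± 0.47) had overlapping groups and were not past the threshold. In that list the 13 genes with a recovered level had a summed signal of 1.51, 1.55 and 1.73 in the Dox arrays, against 1.02 and 0.979 in the NoDox arrays. Epcam had the highest level of the 13, with ratios of 1.05, 1.34 and 0.973 in Dox, against 1.07 and 0.926 in NoDox. Cd74 and H2-Ab1, whose levels are lower bounds, are not in that sum. The part of these cells in the chemokine values was not tested.

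Of 12 measured neutrophil genes 2 rose, the calprotectin subunits S100a8 (3.42 ± 0.27) and S100a9 (1.13 ± 0.17), which keratinocytes also make. The Dox arrays lay above both NoDox arrays for 5 of the 12 and below both for 2, Il1r2 (-0.86 ± 0.20) and Elane (-0.92 ± 0.51), which were not past the threshold. Over all genes, 13.7% lay above both and 22.3% below both. The granule genes Ltf (-2.44 ± 1.07) and Camp (-0.80 ± 0.83) also had values below 0 without passing the test, with the groups overlapping. Over the 11 neutrophil genes with a recovered level, the summed signal was 2.09, 1.82 and 1.32 in the Dox arrays, against 1.05 and 0.953 in the NoDox arrays, and S100a8 had the highest level of the 11. Of 7 measured eosinophil genes 1 rose, the lipoxygenase Alox15 (6.27 ± 0.13), which epithelium and macrophages also make. The other 6 lay in the dimmest 25% of probe sets and were not past the threshold. They were Siglecf (2.85 ± 0.84), Prg3 (0.98 ± 1.05), Il5ra (0.09 ± 1.23), Ccr3 (0.07 ± 1.003), Epx (-0.17 ± 1.12) and Prg2 (-1.09 ± 1.02). With so many dim genes, this list gives little information on eosinophils. Of 13 measured genes of T and NK cells 0 passed limma's test and 3 had an unadjusted p under 0.05, where 3221 of all 18193 genes did. The 3 were the cytokine receptor Il7r (1.60 ± 0.37), the granule gene Nkg7 (1.34 ± 0.38) and the receptor chain Cd3d (2.01 ± 0.81). Cd3d had overlapping groups. Values below 0 belonged to Cd8a (-0.53 ± 0.28), Cd5 (-0.29 ± 0.20) and Cd3g (-0.60 ± 0.82), and 10 of the 13 lay above 0. Of 11 measured genes of B and plasma cells 2 rose, the IgA heavy chain Igha (2.78 ± 0.53) and the secretory gene Derl3 (3.17 ± 0.31). The summed signal of that list was 2.35, 2.60 and 12.98 in the Dox arrays, against 1.01 and 0.989 in the NoDox arrays.

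Of 9 measured genes of lymph node and its stroma 0 rose and 0 fell, and their summed signal was 1.42, 1.32 and 4.35 in the Dox arrays, against 1.05 and 0.948 in the NoDox arrays. The smallest p-values belonged to the lymphotoxin gene Ltb (3.16 ± 0.71, adjusted p = 0.0544), Fcer2a (1.91 ± 0.76) and Pdpn (0.37 ± 0.17). Glycam1, a dim probe set, had ratios of 0.392, 0.626 and 110.5 in the Dox arrays, against 1.19 and 0.810 in the NoDox arrays. Cr2 had ratios of 1.03, 1.85 and 12.2 in the Dox arrays, against 1.44 and 0.562 in the NoDox arrays. In both genes the high value came from Dox replicate 3 alone, while in Chst4 that array was the lowest of the Dox arrays. Dox replicate 3 was thus the highest Dox array in the summed lymph node and B cell lists. It was also the highest in 23 of the 38 chemokine and receptor genes. These include Ccr7, Ccr6, Cxcl13, Cxcl5 and Cxcl15, and likewise Ccl8, Ccl2, Ccl5 and Ccl6. Among the summed lists it was the highest in those of dendritic cells and of T and NK cells too, but not in those of monocytes, neutrophils and endothelium. The part of lymphoid tissue in these values was not tested. Of 10 thymus genes 0 passed the test, with Prss16 at 0.60 and Dntt at -1.56 (adjusted p of 0.422 and 0.424). Rag1 was the other gene of smallest p, and its value rests on a Dox ratio of 0.01, the lowest in the deposited files, so no fold change is given for it.

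**Figure D5:**
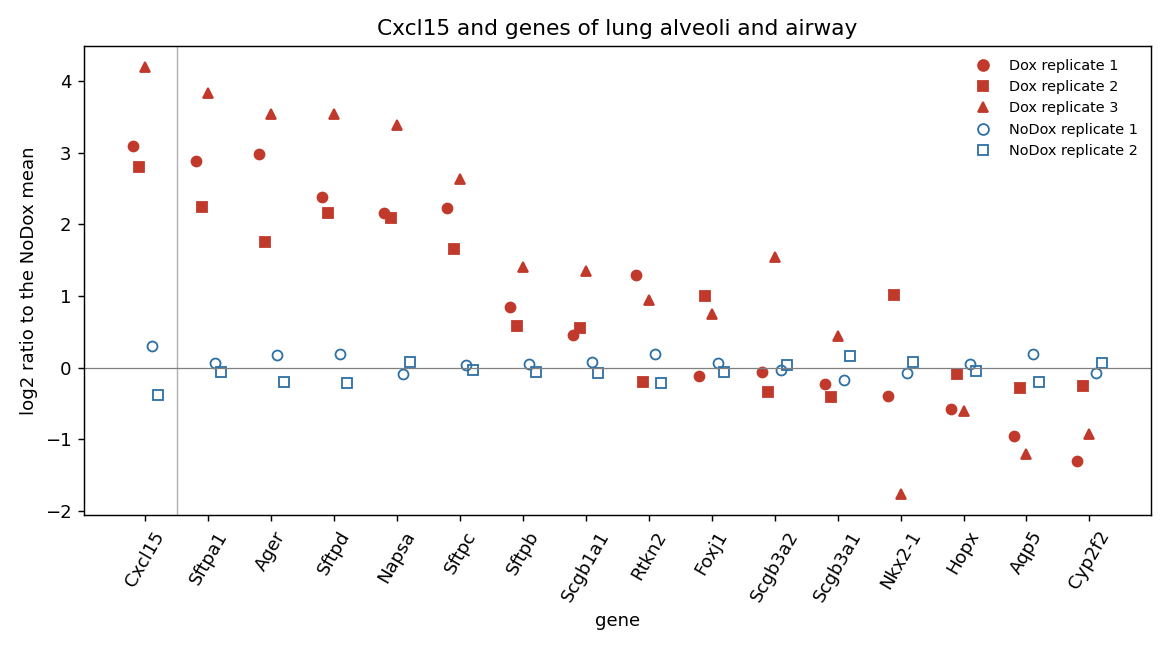
Log2 ratio to the NoDox mean of Cxcl15 (left of the vertical line) and of the 15 measured genes of lung alveoli and airway, in each Dox array (filled red symbols) and NoDox array (open blue symbols), in order of log2 fold change. Cxcl15 and the first 5 lung genes have all Dox arrays well above both NoDox arrays and Dox replicate 3 on top. Hopx, Aqp5 and Cyp2f2, at the far right, have all Dox arrays below both NoDox arrays.

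Cxcl15 was measured beside 15 genes of lung alveoli and airway, of which 5 rose and 0 fell. The surfactant proteins Sftpa1 (2.99 ± 0.36), Sftpd (2.71 ± 0.35) and Sftpc (2.18 ± 0.24), the alveolar protease Napsa (2.55 ± 0.36) and the alveolar receptor Ager (2.77 ± 0.43) rose, with adjusted p from 0.00246 to 0.0121. The club cell genes Scgb1a1 (0.79 ± 0.25) and Cyp2f2 (-0.82 ± 0.26) were not past the threshold, and neither were the alveolar genes Aqp5 (-0.81 ± 0.29) and Hopx (-0.43 ± 0.18). In Cyp2f2, Aqp5 and Hopx all Dox arrays lay below both NoDox arrays, while in 7 of the 15 genes they lay above both. Over all genes, 22.3% lay below both and 13.7% above both. The summed signal of the 11 genes with a recovered level was 2.59, 1.97 and 5.16 in the Dox arrays, against 1.03 and 0.973 in the NoDox arrays. Over all 15, with lower bounds for the other 4 levels, it was 1.56, 1.45 and 2.62 in the Dox arrays, against 1.01 and 0.988 in the NoDox arrays. In Sftpa1 the ratios were 7.41, 4.74 and 14.3 in Dox, against 1.04 and 0.957 in NoDox. Cxcl15 had the same order of the Dox arrays, but so did other chemokine genes, among them Ccl8, Ccl2, Ccl5 and Ccl6. None of the 15 lung genes lay in the dimmest 25% of probe sets. The part of lung RNA in the Cxcl15 value was not tested.

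The esophagus itself was present in both groups. Of 11 measured genes of its squamous epithelium 10 lay above the dimmest 25% of probe sets, among them the keratins Krt4, Krt13 and Krt5, and 1 fell, the cross-linking enzyme Tgm3 (-1.45 ± 0.25). The median ratio of these genes was 0.806, 1.01 and 0.915 in the Dox arrays, against 0.952 and 1.05 in the NoDox arrays. Of 12 skeletal muscle genes 3 fell, Myh7 (-4.04 ± 0.25), Myh4 (-3.06 ± 0.27) and Pvalb (-1.53 ± 0.14), and the median ratio of the 12 was 0.911, 0.731 and 0.890 in the Dox arrays, against 0.953 and 1.05 in the NoDox arrays. Of 11 endothelial genes 2 rose, the adhesion molecule Selp (1.39 ± 0.17) and Plvap (0.77 ± 0.16). The summed signal of the 11 was 1.19 to 1.46 in Dox, against 0.958 to 1.04 in NoDox. Their median log2 fold change was 0.41, and 8 lay above 0. Values below 0 belonged to Tek (-0.15 ± 0.16), Kdr (-0.14 ± 0.24) and Emcn (-0.14 ± 0.18), with overlapping groups.

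Values of ligands and receptors were finally set side by side. Beside the risen Ccl6 and Ccl9 (1.30 and 1.31) their receptor Ccr1 was at 1.15, and beside the risen Ccl2 (2.28) its receptor Ccr2 was at 0.03. Beside the risen Ccl22 (3.93) its receptor Ccr4 was at -1.69 ± 0.77, and beside the risen Ccl8 (3.47) its mouse receptor Ccr8 was at 0.60 ± 1.27. Both receptors were read from probe sets in the dimmest 25%. Beside Ccl5 (3.69) Ccr1 was at 1.15, beside Ccl20 (-0.07) Ccr6 was at 1.63 and beside Cxcl1 (0.65) Cxcr2 was at -0.19. Beside Cxcl2 and Cxcl5 (1.91 and 1.78) Cxcr2 was at -0.19, and beside Cxcl10 (1.06) Cxcr3 was at 0.93. Beside Cxcl16 (0.90) Cxcr6 was at 0.32, and beside Cxcl12 (0.16) Cxcr4 was at 0.76. The other probe sets of Cxcl16 and Cxcr6 were at 1.73 and 1.24. None of these differences between a ligand and its receptor was tested, and the adjusted p of the receptors ranged from 0.0593 for Ccr1 to 0.980 for Ccr2.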

How the data were processed

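Total RNA of the esophagus was hybridised to 5 arrays, 3 Dox and 2 NoDox, whose titles give the group. Signals came from Microarray Suite 5.0 and were normalized pair-wise in GeneSpring 7.3.1, per the labels. The authors deposited linear ratios. In 45099 of 45101 probe sets the NoDox ratios add up to 2 within 0.0001, so every ratio is relative to the NoDox mean.

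The ratios carry no signal level. It was recovered by searching whole signal steps that give all 5 ratios, after a scale factor per array, and was found for 42249 probe sets (93.68%), against 66 of 4000 with shuffled ratios (1.65%). A simulation used 20000 probe sets drawn from those with a recovered level, so it does not cover the others. Of the levels it found, 96.24% were right, and 99.92% were right or divided by a common whole number. Where no solution was found, the level was set to a lower bound. The tolerance of the search was changed after a first fit had been seen, because dim probe sets without a solution had been given a high level. The earlier form is among the alternatives.

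Log2 ratios were fitted with limma (lmFit and eBayes, version 3.58.1 under R 4.3.3), taking the recovered level as the trend. Tests were two-sided, p-values were adjusted by Benjamini-Hochberg over 18193 genes, and no offset or filter was used. The fit has 3 residual and 6.14 prior degrees of freedom. Errors are standard errors of the fit. With 3 against 2 arrays the smallest p of an exact permutation test is 0.1, and none was run. On simulated data of the same size the fit called 0 genes with no change. With 200 genes changed it recovered 98 at 2-fold (11 false calls), 142 at 4-fold (15) and 167 at 8-fold (19). At each fold the false calls were a larger share of all calls than 0.05. The simulated noise was normal and independent between arrays, with each gene's fitted variance, so array-wide effects were not covered.

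The members and the gene lists were chosen with earlier results of these data known. All members are reported. From the other lists the text names the genes past the threshold or, where none passed, the 3 of smallest p. Other list genes, such as receptors set beside their ligands and lung, epithelial, dendritic and endothelial markers, were chosen after their values were seen. Lists were described by counts, medians and summed signal (levels times ratios, over the NoDox mean) and were not tested. Sums cover the genes with a recovered level where not all levels were recovered, and median ratios stand in for epithelium and muscle, where 8 of 11 and 10 of 12 levels are lower bounds. Alternatives covered scaling, offset, dim genes, choice of probe set, variance model, replicate numbers, threshold and single arrays. Tables and plots were made with Python 3.11.15, pandas 2.3.3 and matplotlib 3.10.9. Promoter windows and gene order come from RefSeq (GRCm38.p6).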

Additional observations from a re-analysis of the deposited data

How the results depend on the processing

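The count of 7 risen members stayed within 1.5 times under median centring, both offsets, removal of the dimmest 25%, the mean over probe sets, robust eBayes and the replicate block. It was 2 with quantile normalization of the ratios (59 genes rose and 13 fell), 4 with all probe sets fitted together (147 genes fell), 1 with no intensity trend (10 genes rose and 0 fell, 2449 at unadjusted p under 0.05) and 0 with the mean log2 ratio as the trend in limma (0 genes rose and 0 fell, 2392 genes and 17 members at unadjusted p under 0.05). It was 11 at adjusted p under 0.1 (471 genes rose and 527 fell). With the mean over probe sets 119 genes rose and 70 fell. Of 2 alternatives added after seeing the data, a single tolerance in the level recovery gave 3 members (111 genes rose and 57 fell), and quantile normalization of the recovered signals 138 falls. With 1 array left out, 2 to 8 members and 47 to 404 genes rose and 10 to 526 fell. Arrays sharing a number were not paired, as their deviations correlated by 0.030 and 0.050 and the labels name no link. With the number as a replicate block, in which Dox replicate 3 has no partner and adds nothing to the fold change, 8 members rose and 485 genes fell. The causes of these differences were not tested. No risen member changed sign. The signs that turned belong to members not past the threshold. With median centring Ccl4 was 0.0095, Ccl20 0.015 and Cxcl11 0.041, and with the smaller offset Cxcl11 was 0.0069. With the larger offset Ccl20 was 0.0013 and Cxcl11 0.027. With the mean over probe sets Ccl25 was -0.28, Ccl28 -0.48 and Ccr2 -0.17. With the block Ccl3 was -0.77, Ccl20 0.090 and Cxcr2 0.37. With 1 array left out the values ran from -0.77 to 1.12 for Ccl3, -0.24 to 0.040 for Ccl4, -0.13 to 2.88 for Ccl12, -0.43 to 0.13 for Ccl20, -0.015 to 0.67 for Cxcl9, -0.39 to 0.47 for Cxcl11, -0.27 to 0.31 for Ccr2, -0.45 to 1.35 for Ccr8 and -0.64 to 0.37 for Cxcr2. Without the dimmest 25% of probe sets Ccr7, Ccr4, Ccr8, Ccl3 and Ccl20 have no value.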
